A study of Mus musculus with 3 samples.

Results

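The chemokine ligand genes of the mouse are described here in small intestine collected before and after birth. They were taken as all gene symbols of the deposited tables that start with Ccl or Cxcl and a number, plus Cx3cl1 and Xcl1, which gave 34 of 22100 symbols. The rule reads symbols alone, so a ligand named on another pattern, such as Pf4, is not among them. Single cells came from wild type, untreated mice at the embryonic stages E15.5 and E17.5 and at postnatal day 7 (P7), and each stage is 1 droplet library, made with Chromium 3′ v2 chemistry and counted as unique molecular identifiers (UMIs). Viable cells had been sorted as either Epcam+ (epithelial) or Epcam-/CD31-/CD45- (stromal, muscle and neural) and the suspension held both fractions, so the sort set the cell types that could be sampled and removed most blood and endothelial cells. The sources used here give no strain, no sex and no count of animals behind a library.

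Chemokines are small secreted proteins that guide migrating cells, mostly leukocytes, through receptors that couple to G proteins. Inflammatory members such as Ccl2, Cxcl1 and Cxcl10 are induced by cytokines and microbial products, and homeostatic members such as Cxcl12, Cxcl13, Ccl19 and Ccl21a place cells in tissues and lymphoid organs. In the gut, Ccl25 from the small intestinal epithelium attracts lymphocytes that carry Ccr9, and Cxcl13 from stromal cells takes part in the formation of Peyer's patches.

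The libraries held 93501273 UMIs over 8447 cells at E15.5, 94023160 over 11598 cells at E17.5 and 116038115 over 8391 cells at P7. Members held 50519, 201201 and 99156 of these UMIs, which is 0.0540%, 0.214% and 0.0855%. With 1 library per stage there is no test between stages, and all intervals (95%) cover counting error only. Haemoglobin genes held 0.581%, 1.34% and 0.0373% of the UMIs. The 3 libraries carry the same list of 8447 barcode names, so barcodes shared between libraries could not be counted. Genes with no count in the whole P7 library, among them Ptprc and Tyrobp of immune cells and the members Xcl1, Cxcl3, Ccl12, Ccl1, Ccl3 and Ccl4, may have been taken out before deposit.

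Cells were grouped by marker genes, none of them a chemokine, into classes written with "-like". The classes largely divided the members. Of the 34 members, 31, 33 and 27 had at least 1 UMI at E15.5, E17.5 and P7, and 22 reached 20 CPM (UMIs of the gene per 1000000 UMIs of the class) with 30 or more UMIs in a class of 50 or more cells. The highest level of these 22 lay in fibroblast-like cells for 7, in pericyte-like cells for 5, in immune-like cells for 5, in epithelial-like cells for 4 and in neuronal-like cells for 1. Among classes of 50 or more cells it lay at E17.5 for 15 and at P7 for 7. The classes present set part of this count. Immune-like cells reached 50 at E17.5 alone, so the stage of their 5 members was fixed. No P7 cluster was named pericyte-like, so the 5 members highest there could not be highest at P7.

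**Figure D1:**
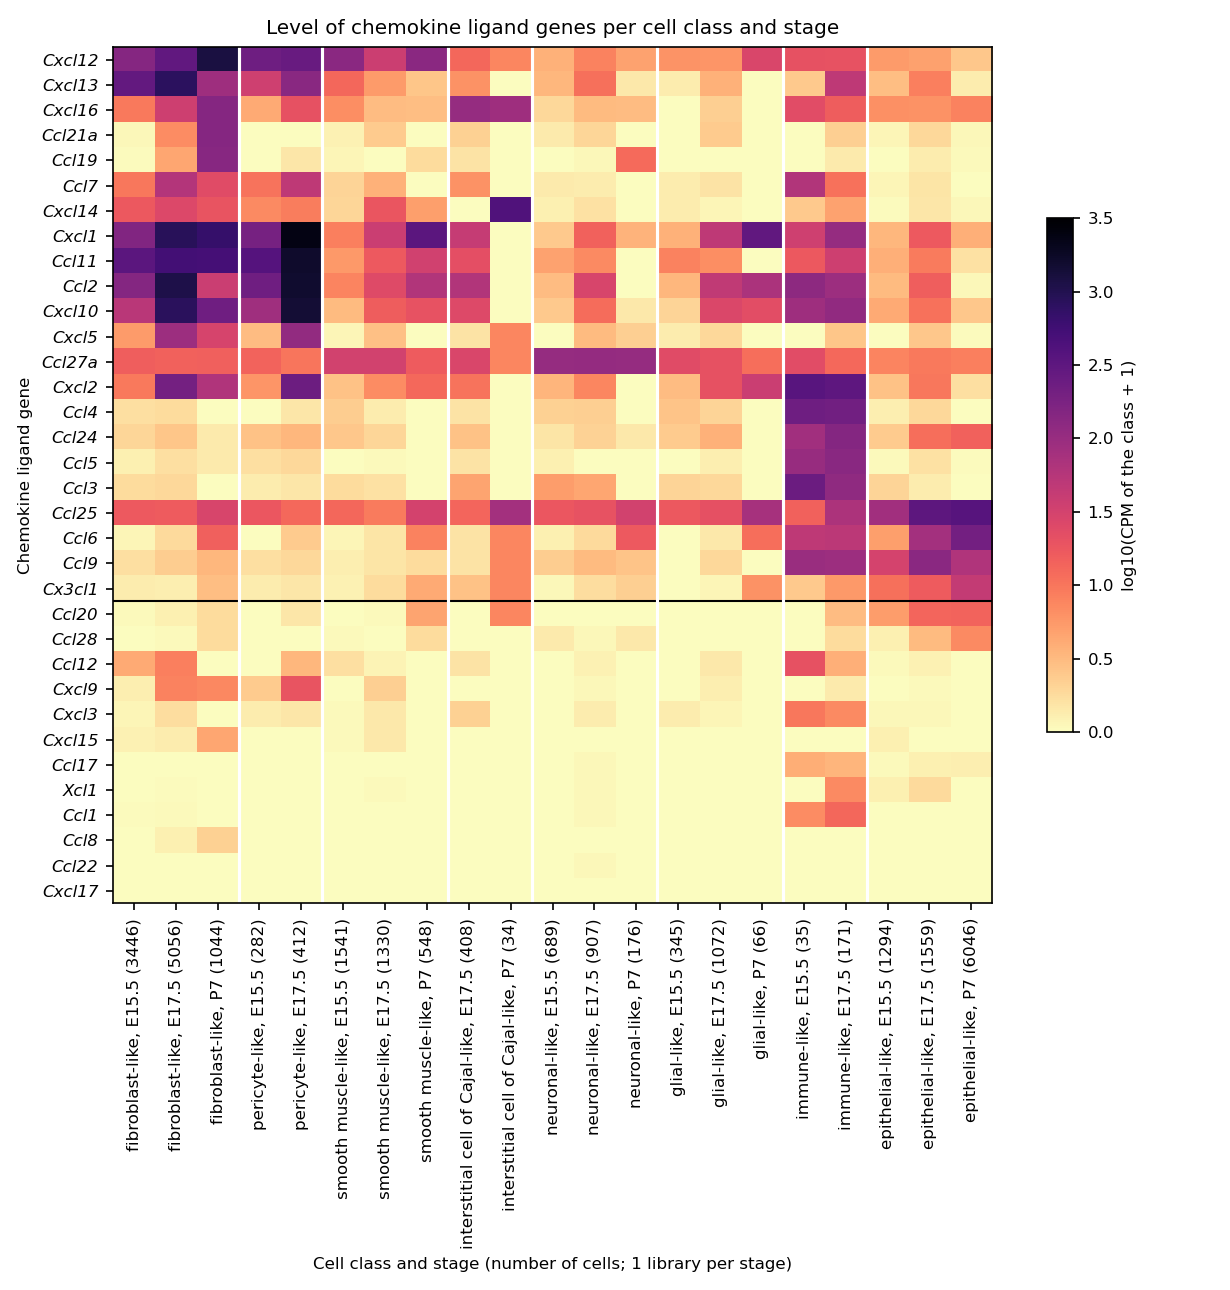
Level of the 34 members (vertical axis) in each cell class and stage (horizontal axis, with the number of cells), drawn as log10(CPM of the class + 1). The 22 members above the black line reached 20 CPM in a class, and blocks of dark cells are seen for stromal members in fibroblast-like and pericyte-like cells, for Ccl3, Ccl4 and Ccl5 in immune-like cells and for Ccl25, Ccl6 and Ccl9 in epithelial-like cells.

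Fibroblast-like cells numbered 3446 at E15.5, 5056 at E17.5 and 1044 at P7, with median depths of 7571.5, 5206.5 and 4591.5 UMIs per cell. Between E15.5 and E17.5, 12 of the 16 members with 100 or more UMIs over both libraries were past 2-fold higher and 0 were past 2-fold lower. Over all 11950 genes read the same way, 5.92% were higher and 1.84% lower. With members and genes left out that another class of the same library held at over 5 times the level, 12 of 14 members were higher, against 4.86% of genes higher and 1.74% lower. The median log2 ratio was 2.28 over the 16 members and -0.10 over all genes. Between E17.5 and P7, 4 of 17 members were higher and 7 lower, against 7.75% and 4.03% of 11276 genes, and the medians were -0.34 and 0.12. With the same genes left out, 4 of 15 were higher and 7 lower, against 6.41% and 3.57%. Both comparisons use the E17.5 library. Haemoglobin held 0.0826%, 0.661% and 0.0566% of the UMIs of fibroblast-like cells and was also highest at E17.5, and its part in these counts was not tested.

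Cxcl1, Cxcl2 and Cxcl5 encode ligands of Cxcr2 that attract neutrophils, and all 3 were highest at E17.5 in fibroblast-like cells. Cxcl1 stood at 154 CPM at E15.5, 881 at E17.5 and 697 at P7. Cxcl2 stood at 8.47, 200 and 61.4 CPM, and Cxcl5 at 4.43, 91.3 and 28.8 CPM. The log2 ratio of E17.5 to E15.5 was 2.51 (2.47 to 2.56) for Cxcl1, 4.56 (4.37 to 4.75) for Cxcl2 and 4.37 (4.11 to 4.63) for Cxcl5. After birth the 3 genes parted in size: P7 lay below E17.5 by a log2 ratio of -0.34 (-0.39 to -0.29) for Cxcl1, under 2-fold, and by -1.70 and -1.66 for Cxcl2 and Cxcl5. Without the 1% of cells that hold most of each gene the first ratio of Cxcl2 was 5.39.

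Cxcl1 was also found in a larger share of cells. It was detected in 30.3%, 50% and 45.5% of fibroblast-like cells at the 3 stages, and in 18.9%, 45.4% and 42.7% after every cell was thinned to 3000 UMIs (3390, 4450 and 917 cells deep enough). In epithelial-like cells, which should lack it, the thinned share was 0.625%, 2.52% and 0.822%, at median depths of 20941, 15302 and 15653.5 UMIs. The share in fibroblast-like cells thus lay far above that in epithelial-like cells at each stage. It did not lie above that of every other class. Pericyte-like cells had a higher thinned share at both embryonic stages, 26.5% of 282 cells at E15.5 and 69.6% of 360 cells at E17.5. At P7 the 23 glial-like cells deep enough had a higher thinned share than fibroblast-like cells. The part of free RNA in these shares was not tested.

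Ccl2 and Ccl7 encode ligands of Ccr2 that attract monocytes, and Ccl2 differed most in size from E17.5 to P7 among the inflammatory members with UMIs at both stages. It stood at 146 CPM at E15.5, 1111 at E17.5 and 36.5 at P7 in fibroblast-like cells. Its log2 ratio was 2.93 (2.88 to 2.98) between the embryonic stages and -4.93 (-5.15 to -4.72) from E17.5 to P7. The P7 level was therefore under that of E15.5 as well. Without the 1% of cells that hold most of each gene the second ratio was -6.11. Ccl2 was detected in 25.2%, 43.0% and 4.31% of the cells, or 15.6%, 39.5% and 3.68% after thinning, against 0.582%, 2.69% and 0.0413% of epithelial-like cells. Ccl7, which lies next to Ccl2 on chromosome 11, stood at 8.89, 57.1 and 22.5 CPM, with log2 ratios of 2.68 and -1.34. The second was -0.92 without doublet removal, under 2-fold, and -2.90 without the top 1% of cells. Ccl12, another gene of this group, stood at 3.23 and 7.59 CPM before birth and is listed at 0 in all P7 cells. It is counted among the 7 lower members above, 6 without it.

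Cxcl10 and Cxcl9 encode ligands of Cxcr3 on activated T cells and are known as interferon-induced genes. Cxcl10 stood at 50.7, 848 and 222 CPM in fibroblast-like cells, a log2 ratio of 4.06 (3.99 to 4.14; 4.79 without doublet removal) and then -1.93 (-2.02 to -1.85). Cxcl9 stayed low, at 0.316, 7.23 and 6.27 CPM. In the E17.5 cells that held 1 of these inflammatory members, others were found more often. Cxcl10 was detected in 61.6% of the 2173 cells with Ccl2 and in 22.8% of those without it, and Cxcl2 in 28.0% of the 2528 cells with Cxcl1 and 6.96% of those without it. Across the 5056 cells of this 1 library, Pearson's r of log levels was 0.50 for Ccl2 with Cxcl10, 0.49 for Cxcl1 with Cxcl10 and 0.39 for Ccl2 with Cxcl1. Depth per cell is shared by these values, and they are descriptions.

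Ccl11 (eotaxin), a ligand of Ccr3 that attracts eosinophils, differed less between stages in fibroblast-like cells. It stood at 334, 533 and 514 CPM there and was detected in 42.0%, 44.4% and 39.8% of them. Its log2 ratios of 0.67 (0.64 to 0.71) and -0.05 (-0.11 to 0.01) stayed within 2-fold. The first did not hold under every alternative: it was 1.77 without doublet removal and 1.07 with finer clustering (Leiden resolution 2), both past 2-fold. The second ratio was not distinguishable from 0 at this depth.

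**Figure D2:**
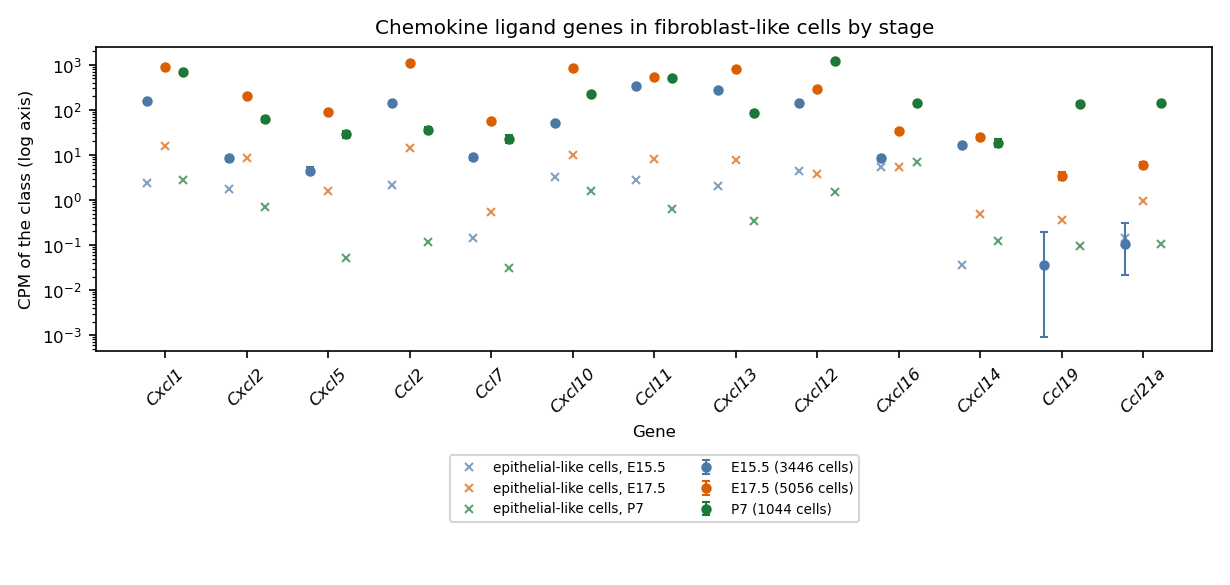
CPM (log axis) of 13 members in fibroblast-like cells at E15.5, E17.5 and P7 (points, with exact 95% Poisson intervals, counting error only) and in epithelial-like cells (crosses, not drawn at 0). Cxcl1, Cxcl2, Cxcl5, Ccl2, Ccl7, Cxcl10 and Cxcl13 are highest at E17.5, and Cxcl12, Cxcl16, Ccl19 and Ccl21a at P7.

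The sequence just upstream of the start site is shown for 3 of the members that were past 4-fold higher at E17.5 and for 2 homeostatic members, to set their letters beside the levels above. Each run is the 250 bases before the RefSeq start site on the gene's strand (GRCm38.p6), 5′ to 3′, and capitals mark matches on either strand to an NF-kB motif (GGG, any 3 bases, TTCC) or an interferon response motif (GAAA, any 2 bases, GAAA). Cxcl1 lies at chr5:90890995-90891244 and Cxcl2 at chr5:90903649-90903898 (both + strand), Cxcl10 at chr5:92348890-92349139 (- strand), Cxcl12 at chr6:117168285-117168534 and Cxcl13 at chr5:95956689-95956938 (both + strand).
Cxcl1: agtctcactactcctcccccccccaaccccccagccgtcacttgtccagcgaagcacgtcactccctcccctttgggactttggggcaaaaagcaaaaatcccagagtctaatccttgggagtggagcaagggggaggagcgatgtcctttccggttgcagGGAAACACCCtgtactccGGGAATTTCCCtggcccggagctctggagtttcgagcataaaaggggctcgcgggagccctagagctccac
Cxcl2: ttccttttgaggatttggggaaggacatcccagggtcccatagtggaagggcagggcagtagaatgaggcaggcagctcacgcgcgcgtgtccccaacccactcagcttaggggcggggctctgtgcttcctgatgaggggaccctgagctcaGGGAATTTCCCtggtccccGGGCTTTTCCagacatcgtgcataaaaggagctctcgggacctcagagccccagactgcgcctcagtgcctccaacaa
Cxcl10: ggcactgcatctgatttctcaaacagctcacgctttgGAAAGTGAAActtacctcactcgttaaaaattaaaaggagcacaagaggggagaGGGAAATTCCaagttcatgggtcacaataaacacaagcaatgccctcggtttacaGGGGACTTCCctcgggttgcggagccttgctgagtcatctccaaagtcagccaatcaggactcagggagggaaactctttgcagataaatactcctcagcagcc
Cxcl12: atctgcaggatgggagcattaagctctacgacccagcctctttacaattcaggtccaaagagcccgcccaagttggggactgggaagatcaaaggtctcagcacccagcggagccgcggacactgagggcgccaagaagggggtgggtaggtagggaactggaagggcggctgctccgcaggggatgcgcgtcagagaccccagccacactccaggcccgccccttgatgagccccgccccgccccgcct
Cxcl13: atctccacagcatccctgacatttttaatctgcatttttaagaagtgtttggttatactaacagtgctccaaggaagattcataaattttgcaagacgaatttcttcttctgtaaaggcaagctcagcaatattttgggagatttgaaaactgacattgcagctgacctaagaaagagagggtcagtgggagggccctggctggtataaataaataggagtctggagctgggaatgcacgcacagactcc

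Cxcl1 and Cxcl2 share the letters GGGAATTTCC, at positions -71 to -62 and -97 to -88 counted back from the start site. The same 10 letters and the base after them also read as a match on the other strand, so the 2 matches overlap and are printed as 1 run of capitals. Cxcl3, not shown, holds the letters GGGAATTTCC as well, at -73 to -64. It had 57 UMIs in the whole E17.5 library, where Cxcl1 had 34868 and Cxcl2 had 8163. These letters were thus also found before a member with few UMIs. Cxcl10 has the NF-kB letters GGGAAATTCC at -159 to -150 and GGGGACTTCC at -104 to -95, and the interferon letters GAAAGTGAAA at -213 to -204. No match to either motif is in the window of Cxcl12 or Cxcl13. Cxcl9 and Ccl21a, not shown, were also past 4-fold higher at E17.5 in fibroblast-like cells, and their windows hold no match either. Of the 34 members, 25 had an entry in the RefSeq promoter table. The NF-kB motif was found in 7 of them (28%; Ccl1, Ccl20, Ccl9, Cxcl1, Cxcl10, Cxcl2 and Cxcl3) and in 6.305% of 27025 genes, and the interferon motif in 3 (12%; Ccl19, Cxcl10 and Cxcl14) and in 3.993% of all genes. A match describes letters and is not a site of binding. Ccl2, Ccl7, Ccl11, Cxcl5, Cxcl16, Ccl24, Ccl4, Ccl5 and Cxcl17 had no entry.

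The homeostatic members had time courses of their own. Cxcl12, the ligand of Cxcr4 and Ackr3, stood at 143, 291 and 1200.0 CPM in fibroblast-like cells, a log2 ratio of 1.03 (0.97 to 1.08) and then 2.05 (2.00 to 2.09). The former sits at the 2-fold line and was under it in 4 alternatives, at 0.65 without doublet removal, 0.79 with Leiden resolution 2, 0.91 with stricter cell filters and 0.94 with members used in clustering. Cxcl12 was the most widely detected member there, in 57.1%, 59.8% and 85.0% of the cells, or 31.7%, 47.6% and 83.4% after thinning. Thinned epithelial-like cells gave 1.32%, 1.06% and 0.509%.

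Cxcl13, the ligand of Cxcr5 on B cells, ran the other way after birth. It stood at 282 CPM at E15.5, 827 at E17.5 and 86.9 at P7, with log2 ratios of 1.55 (1.51 to 1.59; 0.97 without doublet removal) and -3.25 (-3.39 to -3.11). Fibroblast-like cells held 93.9% of its UMIs in the E17.5 library. Cxcl16, a membrane-bound ligand of Cxcr6, stood at 8.36, 34.8 and 142 CPM and was higher at each step, by log2 ratios of 2.06 (1.85 to 2.27) and 2.03 (1.89 to 2.17). Cxcl14 stayed low and within 2-fold, at 16.2, 25.3 and 18.2 CPM.

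Ccl19 and Ccl21a, the ligands of Ccr7 that bring lymphocytes and dendritic cells into lymphoid tissue, were close to absent before birth in fibroblast-like cells. Ccl19 had 1, 96 and 694 UMIs (0.0351, 3.44 and 136 CPM), and Ccl21a had 3, 165 and 713 UMIs (0.105, 5.90 and 140 CPM). These P7 sums rest on few cells. Ccl21a was detected in 1.15% of the P7 cells, 96.2% of its UMIs lay in 10 cells, and 1 cell held 216 of them. For Ccl19 the 10 cells with most UMIs held 91.4%. Both genes have near-identical copies in the mouse genome and overlap 4930578G10Rik on the opposite strand, so their counts are uncertain in source.

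The 13 P7 cells behind Ccl19 and Ccl21a formed a cluster of their own. It was named lymphoid-organiser-like from Madcam1, Tnfsf11, Vcam1 and related markers, with chemokine genes left out of the clustering. It held 713 of the 713 Ccl21a UMIs (7106 CPM, 12 of 13 cells) and 675 of the 694 Ccl19 UMIs (6727 CPM, 13 of 13 cells). Cxcl12 (2302 CPM), Cxcl1 (1754 CPM) and Cxcl13 (1086 CPM, 12 of 13 cells) were also high there. With 13 cells of 1 library, whether these came from 1 or several animals could not be told apart.

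At E17.5 no cluster had this name, and the 2 genes were found in single cells apart from each other. Ccl19 was detected in 0.396% and Ccl21a in 0.989% of 5056 fibroblast-like cells, with 1 cell holding both. 3 cells held 50% of the UMIs of each gene. Their share at E15.5 was 0.0290% and 0.0871%.

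How far a sum rests on few cells was read for every member with 50 or more UMIs in fibroblast-like cells. At P7, 6 of 16 such members (Ccl19, Ccl21a, Ccl2, Ccl6, Ccl7 and Cxcl5) had 50% or more of their UMIs in 1% of the cells, against 0.566% of 9003 genes. With 500 or more UMIs required, Ccl19 and Ccl21a were left, 2 of 7, against 0.418% of genes. At E15.5 the count was 4 of 14 (Ccl12, Ccl7, Cxcl2 and Cxcl5; 5.85% of genes) and at E17.5 4 of 17 (Ccl12, Ccl19, Ccl21a and Cxcl9; 12.7% of genes). In those libraries a gene with few UMIs passes almost by itself, since 34 and 51 cells make up 1%, and with 500 UMIs the counts were 0 of 6 and 0 of 11 (0.0151% and 0.0787% of genes).

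Ccl2 differed between stages in spread as well as in level. The top 1% of fibroblast-like cells held 25.9% of its UMIs at E15.5, 13.8% at E17.5 and 61.8% at P7, where 7 cells held 50% of 186 UMIs. Cxcl12 was the most evenly spread of the 8 genes drawn, with 6.87%, 6.91% and 3.87% in the top 1%. Ccl6 in fibroblast-like cells at P7 (71 UMIs) had 51 UMIs in 1 cell.

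Kinds of fibroblast-like cells differed more than stages did for Ccl11 and Cxcl13. Clusters were given a kind where marker genes allowed, and the rest are named by number. At E17.5 mucosal cells (680, marked by Adamdec1 and Col6a5) had 1708 CPM of Ccl11 and 71.3 CPM of Cxcl13. Deep cells (968, marked by Ogn) had 57.1 CPM of Ccl11 and 2234 CPM of Cxcl13. Ccl11 was detected in 94.1% of the mucosal and 11.1% of the deep cells, Cxcl13 in 11.2% and 94.9%. Across all 5056 cells r of the 2 genes was -0.39, the lowest of the pairs computed in fibroblast-like cells. It was -0.30 at E15.5 and -0.03 at P7 (1044 cells).

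The other members followed one or the other kind at E17.5. Mucosal cells were higher in Cxcl1 (1496 against 858 CPM in deep cells), Cxcl10 (1395 against 987), Cxcl2 (441 against 172), Cxcl5 (301 against 35.1) and Cxcl16 (128 against 5.92). Deep cells were higher in Ccl2 (1924 against 1000.2) and Cxcl12 (410 against 162). Adventitial cells (263) had the most Cxcl12 of the kinds at that stage, 698 CPM in 89.4% of the cells. These kinds were told apart in the same cells whose values are given, so the figures describe the clusters.

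PDGFRA-high subepithelial cells, the fibroblasts under the epithelium that signal to it, were named at both embryonic stages (894 and 570 cells). Ccl11 stood at 769 CPM at E15.5 and 669 at E17.5 there, where the class as a whole was higher at E17.5. Cxcl1 (42.5 and 338 CPM), Cxcl10 (23.6 and 295) and Ccl2 (50.7 and 141) were higher at E17.5 but remained below the mucosal and deep cells of that library. Cxcl12 stood at 83.5 and 93.3 CPM and Cxcl13 at 5.23 and 16.5 CPM, the lowest levels of these 2 genes among the kinds named at E17.5.

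At P7 the named kinds were adventitial (480 cells), mucosal (380) and lymphoid-organiser-like. Cxcl12 led in adventitial cells, at 1542 CPM in 94.0% of them, and reached 931 CPM in mucosal cells. Ccl11 led in mucosal cells (1183 against 126 CPM), as did Cxcl16 (276 against 64.8). Cxcl1 was close in both, at 774 and 607 CPM. Ccl2 was low in each, at 45.2 and 14.0 CPM. No P7 cluster was named deep, so the lower Cxcl13 of the class at P7 and a different mix of kinds cannot be told apart.

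**Figure D3:**
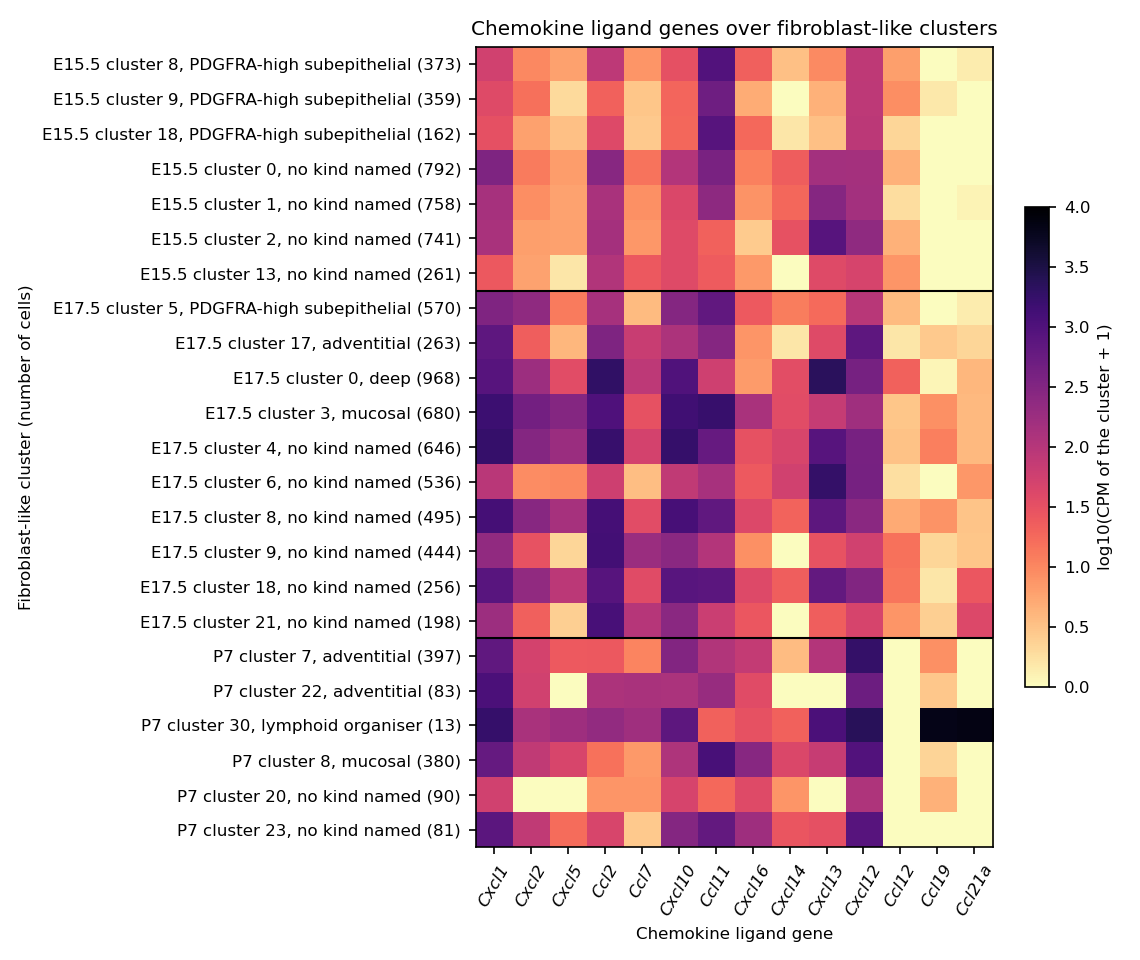
log10(CPM of the cluster + 1) of 14 members (horizontal axis) in each fibroblast-like cluster of the 3 libraries (vertical axis, with its kind and number of cells). Ccl11 and Cxcl13 are dark in different E17.5 clusters (mucosal 1708 and 71.3 CPM, deep 57.1 and 2234 CPM), and Ccl19 and Ccl21a stand out in the 13 lymphoid-organiser-like cells at P7.

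Pericyte-like cells, which wrap small vessels, held the highest levels of Cxcl1, Ccl11, Ccl2, Cxcl10 and Cxcl5 among the named classes at E17.5. At E15.5 (282 cells) and E17.5 (412 cells), Cxcl1 stood at 195 and 2348 CPM, Ccl11 at 373 and 1591 CPM, Ccl2 at 218 and 1546 CPM and Cxcl10 at 85.9 and 1398 CPM. Cxcl5 stood at 2.09 and 111 CPM, at E15.5 below the 4.43 CPM of fibroblast-like cells. At E17.5 Ccl11 was detected in 88.1% of these cells and Cxcl1 in 73.8%. Cxcl12 (228 and 258 CPM) and Cxcl13 (33.4 and 133 CPM) lay at or below the level in fibroblast-like cells at E17.5. Fibroblast markers summed to 5089 and 7319 CPM in pericyte-like cells, and their part in these levels was not tested. No P7 cluster took this name. An unnamed P7 cluster of 68 cells led by Eln, Cxcl1 and Tagln, with Rgs5 among its leading genes, had 2599 CPM of Cxcl1 in 91.2% of its cells, 593 CPM of Ccl11 and 573 CPM of Ccl2.

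Smooth-muscle-like cells (1541, 1330 and 548) had lower levels of most stromal members. The sum over all members was 220, 209 and 647 CPM, against 1194, 4960 and 3378 CPM in fibroblast-like cells. Ccl27a (31.9, 31.0 and 15.2 CPM) lay above fibroblast-like cells at each stage, by little at P7, and Ccl2 did at P7 (59.5 against 36.5 CPM). These Ccl2 levels rest on few cells. In smooth-muscle-like cells 50% or more of the Ccl2 UMIs lay in 1% of the cells at each stage, which is 5 cells at P7. The same held for Ccl11 at E15.5 and E17.5. Of 10 members tested at the first step 5 were higher and 3 lower at E17.5, against 2.77% and 9.60% of 10092 genes, and at the second 5 of 8 were higher and 2 lower at P7, against 14.5% and 5.70% of 8585 genes. In another class of the same library a member could be over 5 times higher, so that free RNA could give such a level. Leaving those out, 1 of 4 was higher and 2 lower at E17.5 (2.52% and 9.36% of genes), and 2 of 4 higher and 2 lower at P7 (13.7% and 5.28%). In clusters with the visceral muscle actin gene Actg2 among their leading genes, 5 of 9 were higher and 1 lower at E17.5 (2.59% and 5.43% of genes), and at P7 the split turned, with 1 of 8 higher and 4 lower (7.07% and 5.92%). Cxcl12 was the highest member of this class at E15.5, at 128 CPM in 43.6% of cells, close to the 143 CPM of fibroblast-like cells. At E17.5 it stood at 36.2 CPM in 17.4% of cells, beside 37.2 CPM of Cxcl1.

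Cxcl1 at P7 divided the smooth-muscle-like cells. It stood at 7.77, 37.2 and 328 CPM over the class, and its second log2 ratio was 3.14 (2.03 without doublet removal). The 461 P7 cells of the clusters led by Eln, without Actg2 among their leading genes, had 821 UMIs of Cxcl1 (430 CPM, 44.9% of cells). The 87 P7 cells led by Actg2 had 0 UMIs, a count that allows up to 5.02 CPM and up to 3.45% of cells with a UMI (3 counts; counting error only). All E17.5 clusters of the class had Actg2 among their leading genes. The mix of clusters and the stage therefore cannot be told apart for Cxcl1. Pericyte markers summed to 272, 356 and 1301 CPM in the class, and their part in this difference was not tested. Within Actg2-led clusters Cxcl12 stood at 121, 36.2 and 48.5 CPM.

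Epithelial-like cells (1294, 1559 and 6046) held most of the UMIs of Ccl25, Ccl6, Ccl9 and Cx3cl1 in each library. Of 15 members tested at the first step 11 were higher and 0 lower at E17.5, against 5.53% and 3.32% of 11431 genes. Of 16 tested at the second, 3 were higher and 8 lower at P7, against 11% and 6.17% of 12791 genes. Of these, 7 of the 11 and 7 of the 8 were over 5 times higher in another class of the higher library, such as Ccl2 (2.15, 14.4 and 0.114 CPM). Free RNA in these levels was not tested, and Cxcl12 at P7 was lower in epithelial-like cells (log2 -1.36) where it was higher in fibroblast-like cells. With members left out that were over 5 times higher in another class, 4 of 6 were higher at E17.5 (Ccl25, Ccl6, Ccl9 and Ccl20; 4.74% of genes higher and 2.61% lower). At P7, 3 of 7 were higher (Cx3cl1, Ccl6 and Ccl28) and 1 lower (Ccl9), against 11.2% and 3.39%.

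Ccl25 was the most widely detected epithelial member. It stood at 81.6 CPM at E15.5, 327 at E17.5 and 360 at P7, with log2 ratios of 2.00 (1.93 to 2.07) and 0.14 (0.11 to 0.18). It was detected in 61.8%, 74.4% and 75.7% of the cells, and in 18.9%, 49.5% and 50.9% after thinning. Fibroblast-like cells thinned alike gave 4.62%, 4.27% and 6.75%. Ccl25 overlaps Elavl1 on the opposite strand, and whether counting used strand is not given in the sources used here. In the P7 library 99.1% of its UMIs lay in epithelial-like cells.

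Ccl25 was unequal along the P7 epithelium. The cluster with the highest level (370 cells led by Rbp2, Apoa4 and Fabp2, genes of absorptive cells) had 916 CPM in 99.7% of its cells. Clusters 0, 1, 12, 13 and 15, with the crypt gene Olfm4 among their leading genes, had 358 to 504 CPM. Clusters 5 and 10, led by Apoa1, Apoa4 and genes of mature absorptive cells, had 43.5 and 25.4 CPM. The clusters with Tff3 and Defa24 among their leading genes had 131 and 27.7 CPM.

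Ccl6 and Ccl9, neighbouring genes on chromosome 11 whose products act through Ccr1, were high in the secretory clusters of the P7 epithelium. Over the class Ccl6 stood at 4.12, 80.4 and 205 CPM and Ccl9 at 29.0, 128 and 62.6 CPM. The few immune-like cells were higher at E15.5, at 47.0 CPM of Ccl6 and 96.9 of Ccl9, and lower at E17.5 (49.5 and 89.5 CPM). Ccl6 differed by log2 ratios of 4.29 (4.02 to 4.57; 6.14 without the top 1% of cells) and 1.35 (1.29 to 1.42), and Ccl9 by 2.14 (2.03 to 2.26) and -1.03 (-1.10 to -0.97). The last was -0.71, under 2-fold, with stricter cell filters. Their order within the secretory clusters was opposite. At P7 Ccl6 was highest in cluster 16 (201 cells led by Tff3, Fcgbp, Defa24 and the goblet cell mucin Muc2), at 5505 CPM in 93.5% of cells, and reached 1619 CPM in cluster 2 (558 cells led by the Paneth cell defensin Defa24 and Spink4). Ccl9 was highest in cluster 2, at 804 CPM in 84.6% of cells, and reached 156 CPM in cluster 16. In the Olfm4-led clusters named above Ccl6 was at 2.85 to 6.56 CPM and Ccl9 at 0.380 to 2.77 CPM.

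The same 2 genes marked the secretory cluster before birth. At E15.5 a cluster of 153 cells led by Sct, Tff3 and Agr2 had 340 CPM of Ccl9 and 46.5 CPM of Ccl6. At E17.5 a cluster of 266 cells led by Tff3, Agr2 and Spink4 had 999 CPM of Ccl9 and 630 CPM of Ccl6. Ccl9 was thus ahead of Ccl6 in these clusters before birth. Cells with both numbered 109 at E17.5, 87.9% of the Ccl6 and 44.1% of the Ccl9 cells, and 422 at P7, 46.5% and 61.4%. CPM compares molecules counted from the 3′ end, where gene length does not enter.

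Cx3cl1 (fractalkine), a membrane-anchored ligand of Cx3cr1 on mononuclear phagocytes, stood at 10, 15.4 and 42.2 CPM and was detected in 17.8%, 19.1% and 42.3% of epithelial-like cells. At P7 it reached 122 CPM in cluster 16 and 43.7 to 71.7 CPM in the 7 clusters led by genes of absorptive cells (3, 4, 5, 9, 10, 11 and 14), against 9.41 to 17.4 CPM in the 5 Olfm4-led clusters. Ccl20, the ligand of Ccr6, ran against this in part of these clusters. It had 14.0 to 30.4 CPM in the Olfm4-led clusters and 1.44 to 4.51 CPM in clusters 3, 4, 5, 9 and 10. The latter range leaves out clusters 11 and 14. Its class level was 4.23, 12.5 and 12.8 CPM. Ccl24, a ligand of Ccr3, reached 57.3 CPM in cluster 3 (541 cells led by Apoa4 and Rbp2) and 1.37, 10.3 and 13.2 CPM over the class. Ccl28, a ligand of Ccr10, reached 31.3 CPM in the 96 enteroendocrine cells of cluster 19, led by Cck, Sct and Pyy.

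**Figure D4:**
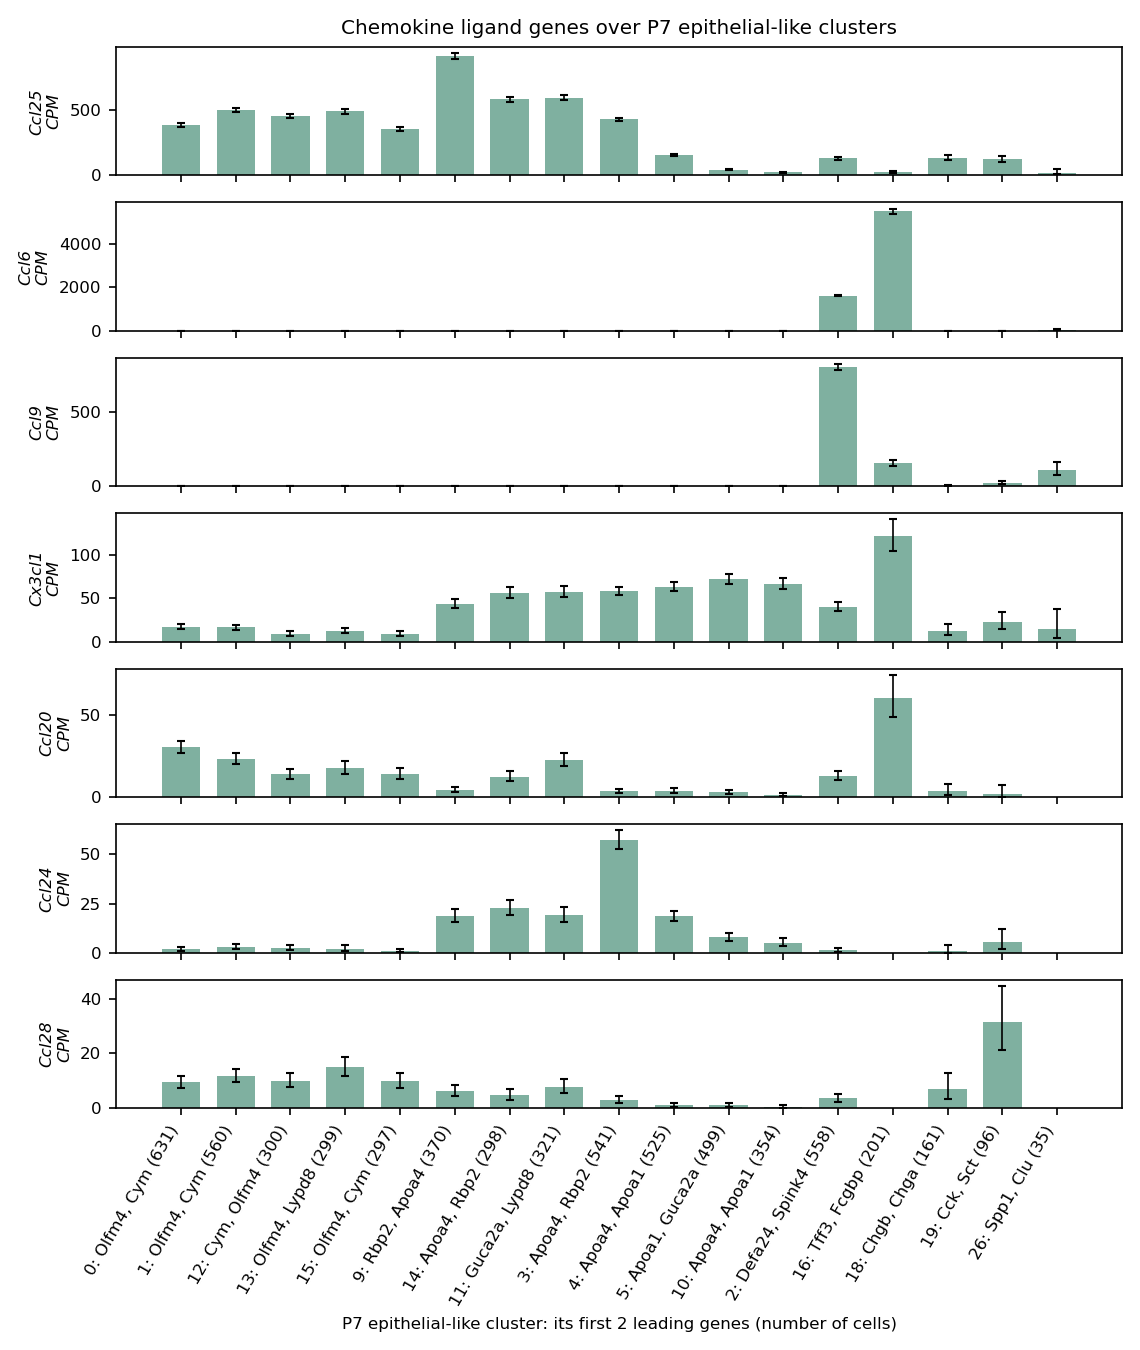
CPM of 7 members (bars from 0, with exact 95% Poisson intervals) in each of the 17 epithelial-like clusters at P7, labelled with their first 2 leading genes and number of cells. Ccl25 is highest in cluster 9 (916 CPM), Ccl6 in cluster 16 (5505 CPM), Ccl9 in cluster 2 (804 CPM) and Ccl24 in cluster 3 (57.3 CPM).

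A small P7 cluster of 35 epithelial-like cells led by Spp1 and Clu had levels of some members above those of the class. It had 32 UMIs of Cxcl1 in 11 cells (117 CPM), 41 of Cxcl2 in 7 cells (150 CPM), 22 of Cxcl12 in 12 cells (80.6 CPM) and 25 of Cxcl16 in 14 cells (91.6 CPM). The class as a whole had 2.83, 0.704, 1.5 and 7.07 CPM of these genes.

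Neuronal-like cells had 1 member at a high level. Ccl27a stood at 102, 107 and 103 CPM and was detected in 57.2%, 49.8% and 67.6% of 689, 907 and 176 cells, or 24.4%, 24.2% and 26.1% after thinning. Fibroblast-like cells had 14.2, 13.4 and 13.9 CPM and smooth-muscle-like cells 31.9, 31.0 and 15.2 CPM. Levels in neuronal-like cells differed by under 2-fold between stages. Ccl27a has near-identical copies and overlaps Il11ra1 on the opposite strand, so the gene that gave these UMIs is uncertain. At P7 neuronal-like cells also had 27 UMIs of Ccl19 in 23 of 176 cells (11.4 CPM, 7.49 to 16.5).

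Immune-like cells were few after the CD45 sort, 35 at E15.5 and 171 at E17.5, with no such cluster at P7. Among the classes they held the highest levels of Ccl3, Ccl4 and Ccl5, which attract monocytes and T cells, and of Cxcl2 and Ccl24. Ccl3 stood at 244 and 117 CPM, Ccl4 at 230 and 217 CPM, Cxcl2 at 354 and 307 CPM and Ccl24 at 82.2 and 144 CPM. Of the 69 Ccl5 UMIs at E15.5, 67 lay in 1 cell, and at E17.5 Ccl5 was detected in 14.0% of the cells (132 CPM). Epithelial markers summed to 1175 and 1395 CPM and smooth muscle markers to 3388 and 3244 CPM in these clusters, beside 3956 and 2867 CPM of immune markers, and their part was not tested. Ccl1 (11.9 CPM), Xcl1 (6.13), Cxcl3 (6.13) and Ccl17 (2.45) were also highest there among classes of 50 or more cells at E17.5, each with 29 UMIs or fewer.

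Cells like the interstitial cells of Cajal, the pacemakers of gut muscle, had 104 CPM of Cxcl16 in 34.1% of 408 cells at E17.5, above the 34.8 CPM of fibroblast-like cells. Their 34 P7 cells had 63 UMIs of Cxcl14 in 17.6% of cells (420 CPM), 21 of them in 1 cell, beside 2042 CPM of epithelial markers. Glial-like cells had 46.6 CPM of Cxcl1 at E17.5 and 291 CPM at P7, the latter from 55 UMIs in 66 cells.

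The other members stayed under 20 CPM in every class of 50 or more cells. Cxcl9 peaked at 18.1 CPM in pericyte-like cells at E17.5, and Cxcl15 at 3.53 CPM and Ccl8 at 1.18 CPM in fibroblast-like cells at P7. Ccl22 had 4 UMIs in the 3 libraries together. Cxcl17 had 0 UMIs.

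Receptor genes were scarce in the sorted cells. Of 23 listed receptors, 3 had 100 or more UMIs in fibroblast-like cells over E15.5 and E17.5, all of them atypical receptors that bind chemokines without the usual signal. Ackr4, which scavenges Ccl19, Ccl21 and Ccl25, stood at 0.246, 8.77 and 25.5 CPM, and Ccrl2 at 2.92, 13.1 and 8.82 CPM. Ackr3, which binds Cxcl12, stood at 7.80, 4.69 and 16.9 CPM. 2 of the 3 were past 2-fold higher at each step (Ackr4 and Ccrl2, then Ackr4 and Ackr3). In immune-like cells Cx3cr1 stood at 157 and 33.9 CPM and Ccr9, the receptor of Ccl25, at 74.4 CPM at E17.5.

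Genes of the pathways known to induce chemokines were read in fibroblast-like cells from listed genes, with the same background shares as above. Of 15 NF-kB response genes tested, 12 were higher and 0 lower at E17.5 (median log2 ratio 2.08), led by Il6 (0.211 to 6.87 CPM) and Tnfaip2 (1.27 to 17.6), with Nfkb1 (46.8 to 69.2) and Ptgs2 (14.6 to 23.7) at the low end. Of 8 interferon response genes 4 were higher (median 1.01), led by Irf1 (81.3 to 343 CPM) and Gbp2 (1.83 to 6.73), with Ifit2 (9.28 to 9.84) and Isg15 (2.14 to 3.83) lowest. Of 17 immediate-early and stress genes 10 were higher (median 1.05), led by Ier3 (39.5 to 331 CPM) and Atf3 (45.3 to 221), with Hspa1b (130 to 77.8) and Hspa1a (386 to 273) lowest. Of 9 genes for cytokines and their receptors 3 were higher (median 0.67), led by Il17ra (1.44 to 3.65 CPM) and Myd88 (15.4 to 38.0), with Il1b (2.53 to 2.00) and Ifnar1 (34.6 to 37.5) lowest.

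At P7 against E17.5 these lists differed in direction, and the median log2 ratio was -0.34 over the members and 0.12 over all genes. Of 15 NF-kB response genes 3 were higher and 1 lower (median -0.15), with Tnfaip2 (17.6 to 81.6 CPM) and Il6 (6.87 to 30.2) highest and Bcl3 (35.9 to 16.1) and Ptgs2 (23.7 to 14.5) lowest. Of 10 interferon response genes 7 were higher and 0 lower (median 1.59), with Ifi27l2a (27.7 to 693 CPM) and Gbp3 (1.86 to 11) highest and Irf1 (343 to 186) lowest. Of 17 immediate-early and stress genes 2 were higher and 2 lower (median 0.57), with Fosb (443 to 1067 CPM) and Dusp1 (160 to 343) highest and Hspa1b (77.8 to 21.6) and Hspa1a (273 to 94.3) lowest. None of 8 cytokine and receptor genes was past 2-fold: 0 were higher and 0 lower, from Ltbr (44.6 to 46.3 CPM) and Il6st (123 to 130) to Ifngr1 (38.4 to 47.8) and Ifnar1 (37.5 to 45.1). The immediate-early list summed to 8433, 14817 and 21347 CPM over the 3 stages and was highest at P7. Its part in the levels of members was not tested.

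Within the E17.5 library, the inflammatory ligands differed in how they went with NF-kB response RNA across fibroblast-like cells. Pearson's r with the summed list over the 5056 cells was 0.53 for Cxcl10, 0.47 for Cxcl1, 0.44 for Ccl2 and 0.37 for Cxcl2. It was lower for Cxcl5 (0.25), Ccl11 (0.19) and Ccl7 (0.10), and 0.02 and 0.04 for Cxcl12 and Cxcl13. With the interferon list r was 0.44 for Cxcl10, 0.42 for Cxcl1 and 0.34 for Ccl2. With the immediate-early list r was 0.34 for Cxcl1, 0.26 for Cxcl10 and 0.25 for Ccl2. With haemoglobin r lay between -0.04 and 0.01 for the 9 genes read. Clusters led by haemoglobin genes were kept out of the named classes and so out of this reading. At E15.5 r with the NF-kB list was 0.29 for Cxcl10, 0.21 for Cxcl1, 0.20 for Ccl2 and -0.01 for Cxcl12. At P7 it was 0.32 for Cxcl1 and 0.27 for Cxcl10. There Cxcl12 and Cxcl13 (both 0.17) lay above Cxcl2 (0.16) and Ccl2 (0.14). With the immediate-early list Cxcl1 had r of 0.33 at E15.5 and 0.32 at P7. The cells of a stage share 1 library and its depth, and the values are descriptions.

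Neighbouring members did not share a class throughout. In the GENCODE M21 annotation (GRCm38) 24 of the 34 members lie in 6 groups of neighbours under 1000000 bases apart. On chromosome 5, Cxcl5, Cxcl3, Cxcl15, Cxcl1 and Cxcl2 (chr5:90759360-90905938) form 1 group. Cxcl1, Cxcl2 and Cxcl5 were highest at E17.5 in fibroblast-like cells, whereas Cxcl15 was near 0 there. Cxcl3 was low as well, with 57 UMIs in the whole E17.5 library. On chromosome 11, Ccl2, Ccl7 and Ccl11 (in chr11:82035571-82305690) were stromal, and Ccl8 and Ccl1 of the same group were at or under 1.18 and 11.9 CPM in each class. The second chromosome 11 group (chr11:83525778-83664683) holds Ccl6 and Ccl9, highest in epithelial-like cells at E17.5 and P7, and Ccl3, Ccl4 and Ccl5, highest in immune-like cells. Cxcl12 (chr6:117168535-117181367), Cxcl13 (chr5:95956951-95961068) and Ccl25 (chr8:4325210-4360020) stand alone.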

How the data were processed

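Mouse small intestine cells were measured in 3 libraries, 1 per stage. The authors deposited unnormalised whole-number UMI counts for each gene in each cell, per the file headers, and the submitters' processing notes name Cell Ranger 7.2.0 and the builds mm10 and GRCm38. Whether counting used strand is not given in the sources used here. Every deposited cell already held 500 or more genes and under 15% mitochondrial UMIs. Scrublet (scanpy 1.11.5, expected rate 6%) called 243, 453 and 389 doublets, which were removed. Each library was clustered alone with the 34 members left out of the variable genes: 2000 variable genes, 30 components, 15 neighbours, Leiden resolution 1 (leidenalg 0.10.2, igraph 0.11.9), seed 0. Clusters were named by the log2 score of their best 5 markers with a pseudocount of 20 CPM, a lead of 0.5 over the next class, at least 3 detected markers and no better class among leading genes; fibroblast kinds used the best 3 markers and a lead of 0.3. This scoring was chosen after seeing the data, and rebuilt names may differ from those of the study. A cluster with 3 or more haemoglobin genes among its leading genes stayed unnamed. Clusters without a name, 572, 230 and 88 cells, were left out of the classes.

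Counts were summed per class and scaled to 1e+06 UMIs (CPM). Levels have exact Poisson, shares Clopper-Pearson and ratios exact conditional binomial intervals at 95%, which cover counting error only. A ratio was read from 100 UMIs over both libraries and called at 2-fold, and any count under 3 UMIs was set to a floor of 3 UMIs. Members with 30 or more UMIs and 20 CPM in a class of 50 or more cells are given in full, the others by their highest level, and from each list the 2 highest and 2 lowest genes, of which 1 is not reported here. Clusters singled out in the text were chosen after their values were seen. The ratio script was tested on simulated data. The members and lists were chosen with earlier results of these data known. Alternatives were other clusterings, cell filters, class rules, scalings, count minimums and folds, and after seeing the data a comparison with other classes, Actg2-led muscle clusters and a minimum of 500 UMIs. Python 3.11.15 with numpy 2.4.6, scipy 1.17.1, pandas 2.3.3 and matplotlib 3.10.9 was used.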

Additional observations from a re-analysis of the deposited data

Results flagged for a closer look

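In 10 cases a member was higher at the later stage in 1 class and lower in another. The difference between the classes was not tested, since each stage is 1 library. At E17.5 against E15.5 the log2 ratio in fibroblast-like cells was above that in smooth-muscle-like cells by 2.998 for Cxcl13, 2.851 for Cxcl12 and 3.539 for Cxcl16, and for Cxcl13 the difference of smooth-muscle-like to epithelial-like cells was -3.374. At P7 against E17.5 the difference of fibroblast-like to epithelial-like cells was 3.408 for Cxcl12, and that of fibroblast-like to smooth-muscle-like cells was -6.273 for Ccl2. That of smooth-muscle-like to epithelial-like cells was 5.606 for Cxcl1, 3.188 for Cxcl12, 8.325 for Ccl2 and 4.765 for Ccl11. Every epithelial-like value here comes from levels of 15.7 CPM or less that another class of the same library exceeded over 5 times.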

How the results depend on the processing

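No paired analysis was possible because each stage is 1 library. Of 107 alternatives for the counts of members, 87 stayed within 1.5 times, including all of those for fibroblast-like cells at E17.5 (9 to 18 members against 12). With no minimum of UMIs the counts were 18 in fibroblast-like cells at P7 (11 with it), 19 and 16 in smooth-muscle-like cells at E17.5 and P7 (8 and 7) and 24 and 23 in epithelial-like cells (11 and 11). Leaving out members over 5 times higher in another class gave 3 and 4 in smooth-muscle-like and 4 and 4 in epithelial-like cells. Smooth-muscle-like counts were 3 at E17.5 without the 1% of cells that hold most of each gene, and at P7 3 with classes from markers per cell and 4 at 3-fold; epithelial-like cells at P7 gave 6 at 3-fold. Members held by few fibroblast-like cells were 0, 0 and 2 with 500 UMIs and 10, 11 and 12 with 5% of cells (4, 4 and 6), and 10 at E17.5 with 20 UMIs. Of 43 single ratios 38 kept their sign under each alternative run. Ccl2 in smooth-muscle-like cells at P7 turned from a log2 ratio of 1.34 to -0.057 without doublet removal; the cause was not tested. Scaling by the median ratio of genes shifts log2 ratios by 0.12 and -0.13 in fibroblast-like, 0.30 and -0.27 in smooth-muscle-like and 0.13 and -0.05 in epithelial-like cells. One library per stage, with animals not counted, limits every comparison between stages.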
